A study of Rattus norvegicus with 4 samples.

Results

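The genes described are Fabp3, Fabp4, Fabp5, Fabp7, Crabp1 and Crabp2, which encode small intracellular proteins that carry fatty acids or retinoic acid. Every probe set, the group of short oligonucleotides that reports one transcript, was taken if its only gene symbol in the platform annotation was one of these 6. This gave 6 probe sets, 1 for each gene, among 31042 probe sets and 14217 named genes in all. They were measured in cultured rat Sertoli cells, the epithelial cells that line the seminiferous tubule and support the developing germ cells. The donors were 20-day-old male Sprague-Dawley rats. Both groups were kept for 72 h in serum-free medium with bovine serum albumin, one of them untreated (control) and the other with cAMP, and each group was measured on 2 one-colour Affymetrix arrays. cAMP is the second messenger of follicle-stimulating hormone in these cells, and the sources used here give neither its chemical form nor its dose. The labels call the replicates biological without naming separate preparations, so p-values here reflect only how far these arrays spread, which may be technical in part. The question put to the data is how the transcripts of these carriers differ between the groups.

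Fatty acids and retinoids are poorly soluble in water and move through the cytoplasm bound to proteins of one family, each a barrel of beta strands that encloses a single ligand. FABP3, first known from heart muscle, FABP4 from fat cells, FABP5 from epidermis and FABP7 from brain carry long-chain fatty acids to mitochondria, to membranes and, for some of them, to the nuclear receptors called PPARs. CRABP1 and CRABP2 bind retinoic acid; CRABP2 passes it to the retinoic acid receptors in the nucleus, and CRABP1 holds it in the cytoplasm. In the testis, fatty acids are a fuel of Sertoli cells, and retinoic acid made partly by these cells starts the differentiation of spermatogonia and their entry into meiosis.

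The cultures had the transcripts of Sertoli cells and some of germ cells. Of 8 measured Sertoli cell markers 7 lay above background on all 4 arrays, background being 14.2, the maximum over the 27 probe sets for Bacillus spike-in RNA. Summed over the Sertoli markers the signal was 12848 and 12930 in control cells and 16122 and 16578 with cAMP. The inhibin gene Inha rose from 1097 ± 206 to 4539 ± 274 and was the largest single increase in this sum. Shbg and Dhh were called higher too, while Gata4, a transcription factor, was called lower, from 1262 ± 40.7 to 648 ± 0.990 (adjusted p by limma = 0.00297). Of 6 germ cell markers, 2 lay above background on every array and 3 on none; their summed signal was 2458 and 2414 in control cells and 2402 and 1875 with cAMP, most of it from Sycp3, a protein of the meiotic chromosome axis. The 5 Leydig cell markers summed to between 31.1 and 52.9 and the 5 adipocyte markers to between 16.3 and 38.9, with no marker of either list above background on all arrays. The median signal per array ranged from 31.3 to 33.7. Actin probe sets at the 3' end were 1.65 to 2.25 times as bright as those at the 5' end, with the highest ratio on control replicate 2. This ratio can rise with RNA breakdown, which was not tested.

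Fabp3 went down and Fabp5 went up with cAMP. Signals are the deposited intensities on a linear scale, in arbitrary units. Of the 6 genes 4 were bright enough to be tested, because their mean log2(signal + 16) over the 4 arrays reached the 40th percentile of all probe sets, a value of 5.10; Fabp4 and Fabp7 lay below it. Among the 4, limma called 1 higher and 1 lower at a Benjamini-Hochberg adjusted p of 0.05, where 7.29% of the 18625 tested probe sets were called higher and 6.39% lower. The other 2, Crabp1 and Crabp2, did not pass. The median log2 difference of the 4, cAMP minus control on the log2(signal + 16) scale, was -0.35, beside -0.04 for all tested probe sets. This median lies between the values of Crabp1 and Crabp2, which are dim, and says little of Fabp3 and Fabp5. With 1 added to the signal in place of 16, Crabp1 and Crabp2 were at -0.47 and -0.59, and with 64 added at -0.21 and -0.15. In a whole culture, fewer cells that express a gene and less of its RNA in each cell cannot be told apart.

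**Figure D1:**
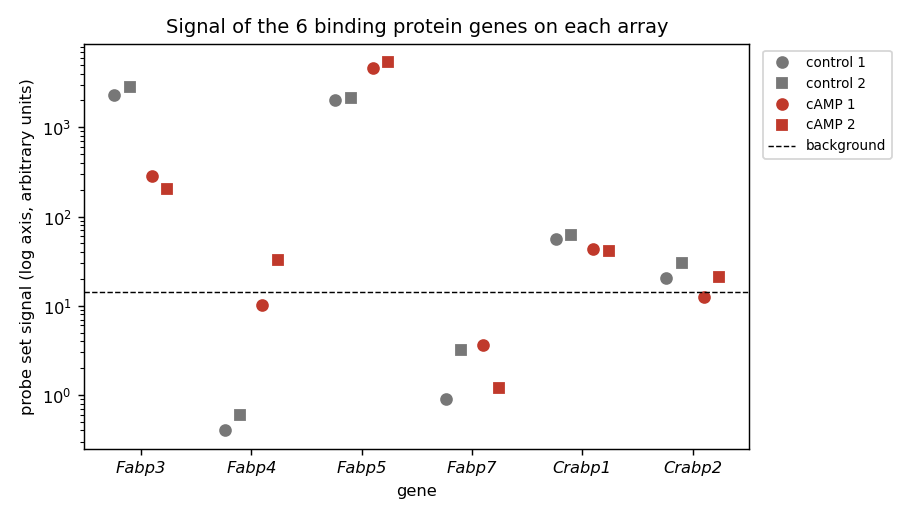
Signal of each of the 6 genes on the 4 arrays, on a log axis in arbitrary units, with control arrays in grey, cAMP arrays in red and the background of 14.2 as a dashed line; heights of different genes cannot be compared, since each has its own probes. Fabp3 lies at 2321 and 2799 in control cells and at 282 and 202 with cAMP, Fabp5 moves the other way, and Fabp7 stays below the line on every array.

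Fabp3, the heart-type fatty acid carrier, had a signal of 2321 and 2799 on control replicates 1 and 2, and of 282 and 202 on cAMP replicates 1 and 2. Both cAMP arrays were far below both control arrays. The mean fell from 2560 ± 338 to 242 ± 56.6 (SD, n = 2 arrays per group), which makes the control mean 10.6 times the cAMP mean. The log2 difference was -3.33 ± 0.18 (SE; 95% interval -3.76 to -2.90; adjusted p by limma = 0.000101). The arrays of one group lay 0.27 (control) and 0.45 (cAMP) apart on this scale, while the closest pair of arrays from different groups lay 2.97 apart. Fabp3 ranked 17 from the largest decrease among the 18625 tested probe sets. With any 1 array left out the log2 difference stayed between -3.55 and -3.10. FABP3 is also a carrier of muscle, and 7 peritubular myoid cell markers, 3 of them above background on all arrays, summed to 614 and 461 in control cells and to 182 and 221 with cAMP. Most of that drop was in Tagln, at 344.5 and 264.3 in control cells and below background with cAMP. The list moved both ways: Tagln and Synpo2 were called lower, the muscle filament gene Des rose from 19.7 and 19.5 to 58.1 and 68.3 (1.15 ± 0.20, adjusted p by limma = 0.0102), and the smooth muscle actin gene Acta2 did not pass (-0.19 ± 0.26). The part of these cells in the Fabp3 result was not tested.

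The stretch before the annotated start of Fabp3 is shown because this gene had the largest change of the 6, together with those of Crabp1 and Crabp2, which did not pass. The sequences are those of RefSeq for rat build GRCr8, 250 bases each, 5' to 3', all from the plus strand. RefSeq promoters were matched for 4 of the 6 genes, these 3 and Fabp7. Capitals mark any match, on either strand, to TGACG (the core of the cAMP response element), TATAAA (the TATA box), AGGTCA (the repeated unit in sites of nuclear receptors such as the PPARs) or GGGCGG (the GC box).
Fabp3, chr5:147935875-147936124: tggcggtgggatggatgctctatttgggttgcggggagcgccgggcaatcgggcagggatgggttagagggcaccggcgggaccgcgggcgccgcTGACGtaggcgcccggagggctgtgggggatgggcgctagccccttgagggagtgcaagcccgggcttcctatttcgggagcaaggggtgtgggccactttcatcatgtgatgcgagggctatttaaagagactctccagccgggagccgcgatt
Crabp1, chr8:64047181-64047430: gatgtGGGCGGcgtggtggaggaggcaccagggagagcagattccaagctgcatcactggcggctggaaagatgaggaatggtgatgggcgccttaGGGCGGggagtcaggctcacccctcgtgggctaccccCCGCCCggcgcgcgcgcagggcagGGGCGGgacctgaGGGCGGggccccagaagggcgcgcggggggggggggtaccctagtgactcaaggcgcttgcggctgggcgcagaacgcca
Crabp2, chr2:175714612-175714861: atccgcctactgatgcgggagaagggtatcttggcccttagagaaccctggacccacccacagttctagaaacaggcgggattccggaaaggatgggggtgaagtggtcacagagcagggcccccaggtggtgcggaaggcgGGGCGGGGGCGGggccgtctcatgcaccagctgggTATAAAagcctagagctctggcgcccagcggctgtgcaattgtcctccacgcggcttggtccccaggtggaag

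The Fabp3 stretch held 1 match to TGACG, beginning 155 bases before the start, and no match to the other 3 motifs. TGACG was found in the same window of 18.2% of 33469 promoters. The full palindrome TGACGTCA, which contains that core and occurs in 1.59% of promoters, was in none of the 4 matched stretches. Crabp1 held 5 matches to the GC box, and Crabp2 held 2 that lie side by side without overlap. The GC box was found in 30.5% of promoters. Crabp2 also held 1 TATA box, found in 12.9%, and the nuclear receptor unit, found in 14.1%, was in none of the 3 stretches shown. The Fabp7 stretch, which is not shown, held 1 nuclear receptor unit and 1 GC box. GC content was 65.6% for Fabp3, 71.6% for Crabp1 and 63.2% for Crabp2, against a median of 51.2% over all promoters. A match is a description of the letters and not a site of binding.

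Fabp5, the epidermal-type carrier, which can hand fatty acids and retinoic acid to PPAR-delta, read 1999 and 2145 in control cells and 4649 and 5345 with cAMP. Both cAMP arrays lay above both control arrays, and the arrays of one group were close to each other. The mean rose from 2072 ± 103 to 4997 ± 492, or 2.41 times the control mean, a log2 difference of 1.26 ± 0.12 (95% interval 0.98 to 1.54; adjusted p by limma = 0.000759). Arrays of one group lay 0.10 (control) and 0.20 (cAMP) apart on the log2 scale, and the closest pair of arrays from different groups 1.11 apart. Fabp5 ranked 533 from the largest increase. When 1 array was left out, the difference ranged from 1.16 to 1.36, with an adjusted p by limma of at most 0.0221.

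The counts over the whole array depended on the arrays used, which bears on the shares given above. All 4 arrays gave 1358 probe sets higher and 1191 lower. Without cAMP replicate 1 there were 408 and 305, without cAMP replicate 2 there were 427 and 346, and without control replicate 1 there were 2419 and 2371. Fabp3 was called lower and Fabp5 higher by limma in each of these fits.

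**Figure D2:**
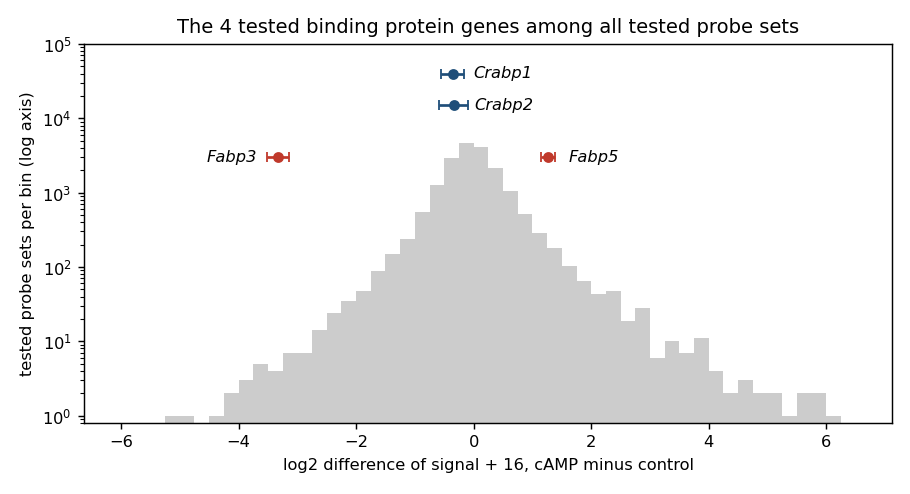
Log2 differences (cAMP minus control, signal + 16) of the 18625 tested probe sets in grey bars of 0.25, counted on a log axis, with the 4 tested genes as points with their SE; the height of a point has no meaning. Fabp3 at -3.33 lies in the thin left tail, Fabp5 at 1.26 on the right shoulder, and Crabp1 and Crabp2 at -0.36 and -0.34 in the bulk.

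Fabp4, the carrier of fat cells, macrophages and capillary endothelium, was barely seen. The control arrays read 0.4 and 0.6, both below background, and the cAMP arrays 10.3 and 32.3, of which only the second lay above background. Both cAMP arrays read higher than both control arrays, and they differed from each other. No fold is given, since only 1 of the 4 arrays measured it above background. Tested without the filter on dim probe sets, its log2 difference was 1.11 ± 0.30 and did not pass (adjusted p by limma = 0.112, where 5.15% of 31042 probe sets passed in either direction). Of the adipocyte markers, Adipoq lay between 0.8 and 4.7 and Plin1 between 12.3 and 20.2. Of the 6 macrophage markers Cd68 lay at 4.1 and 6.2 in control cells and at 28.1 and 45.2 with cAMP. Cd68 was below the filter, with both control arrays below background, and tested without the filter it passed as higher (1.30 ± 0.25, adjusted p by limma = 0.0451). Lyz2, the only macrophage marker above the filter, went the other way, from 47.3 and 108.6 to 26.4 and 27.6. It did not pass with the filter (-1.05 ± 0.32, adjusted p by limma = 0.0751) or without it (adjusted p by limma = 0.178). Adgre1, Ptprc and Cd163 were below background on every array, and Csf1r lay above it on 1 array of each group. The summed macrophage signal was 75.4 and 128 in control cells and 76.4 and 95.4 with cAMP, and the part of these cells in the Fabp4 signal was not tested. The 4 endothelial markers summed to 229.5 and 155.6 in control cells and to 91.2 and 88.3 with cAMP, with Pecam1 and Vwf at or below background throughout. Most of that drop was in Kdr, which fell from 187.3 and 130.8 to 57.5 and 58.1 (-1.23 ± 0.21, adjusted p by limma = 0.00972). Tek was level, at 24.9 and 17.4 in control cells and 25.2 and 17.1 with cAMP.

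Fabp7, the carrier of radial glia and astrocytes, lay far below background on each array, at 0.9 and 3.2 in control cells and at 3.6 and 1.2 with cAMP. The groups overlapped and no fold is given. Among 3 measured glial markers Gfap and Sox10 lay between 7.2 and 20.4, near background, while S100b, a calcium-binding protein, rose from 189 ± 10.1 to 934 ± 52.7 (2.21 ± 0.14, adjusted p by limma = 0.000157). The summed glial signal, mostly S100b, was 219 and 215 in control cells and 926 and 994 with cAMP.

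The retinoic acid carriers were dim and did not pass. Crabp1, which in the testis is known from spermatogonia, had a signal of 56.2 and 61.4 in control cells and of 43.7 and 40.9 with cAMP. Its groups did not overlap, yet the mean went only from 58.8 ± 3.68 to 42.3 ± 1.98, a log2 difference of -0.36 ± 0.19 (95% interval -0.81 to 0.09; adjusted p by limma = 0.273). Crabp2 had a signal of 20.3 and 30.2 in control cells and of 12.4 and 20.9 with cAMP, the first cAMP array being below background. Its groups overlapped, and the log2 difference of -0.34 ± 0.24 (95% interval -0.91 to 0.24) did not pass either (adjusted p by limma = 0.420). Both intervals leave room for a decrease of more than 0.8 on the log2 scale as well as for no change. Groups that did not overlap were common: 3 of the 4 tested genes had them, against 58.2% of the tested probe sets, and 4 of all 6 genes against 49.3% of all probe sets.

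**Figure D3:**
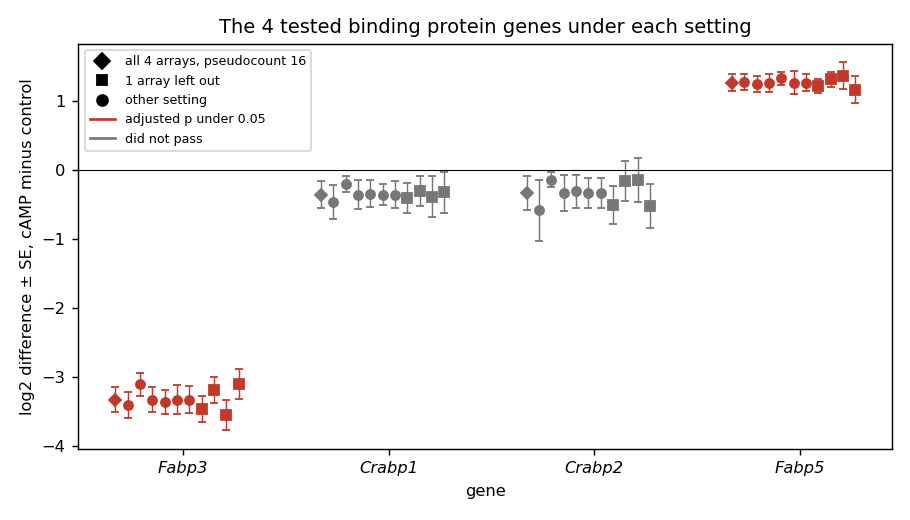
Log2 difference ± SE, cAMP minus control, of the 4 tested genes with all 4 arrays (diamonds), with 1 array left out (squares) and under 6 other settings (circles); red marks an adjusted p under 0.05. Every value of Fabp3 (-3.55 to -3.10) and Fabp5 (1.16 to 1.36) is red, and every value of Crabp1 and Crabp2 is grey and below 0.

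Fabp5 lies in a row of related genes. In the RefSeq annotation the order of protein-coding genes on rat chromosome 2 is Fabp12, Fabp4, Fabp9, Pmp2 and Fabp5, with no other protein-coding gene between them. Beside Fabp5 only Fabp9, known as a protein of germ cells in late spermatogenesis, was well above background, at 830 and 818 in control cells and 671 and 429 with cAMP. The germ cell markers Tnp1, Prm1 and Acrv1 lay below background on every array, between 0.4 and 13.5. Fabp9 was lower on both cAMP arrays, which differed from each other, and did not pass (log2 difference -0.60 ± 0.21, adjusted p by limma = 0.103). The difference was -0.29 without cAMP replicate 2 and -0.92 without cAMP replicate 1, and it passed in neither fit. The germ cell marker Sycp3, at 2340 and 2298 in control cells and 2258 and 1754 with cAMP, had its lowest value on the same array as Fabp9, cAMP replicate 2. Sycp1, the other germ cell marker above background on every array, went the other way, from 101 and 72.6 in control cells to 105.7 and 104 with cAMP. Neither passed, and the part of germ cells in the Fabp9 values was not tested. Pmp2, the carrier of peripheral myelin, stayed between 1.0 and 5.2, and Fabp12 between 1.6 and 17.9. Fabp5, with 4649 and 5345 on the cAMP arrays, passed the test and Fabp9, the only other gene of the row that was tested, did not.

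**Figure D4:**
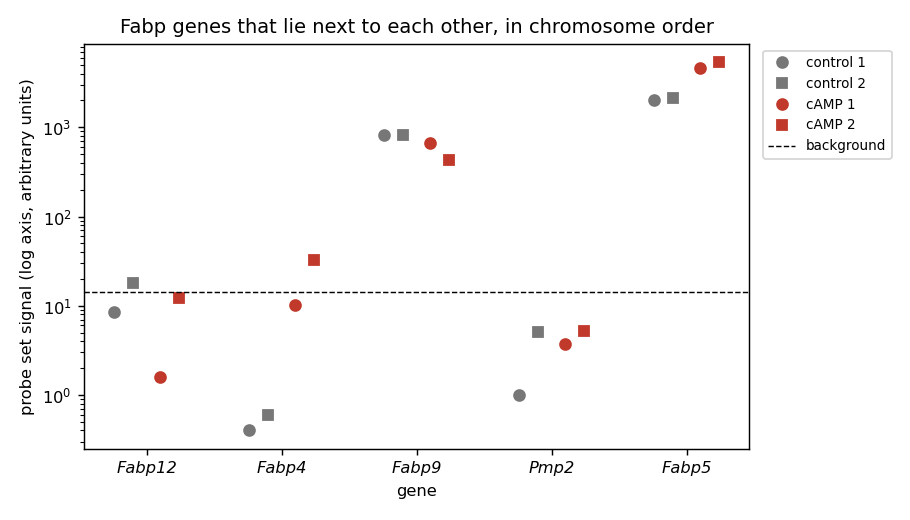
Signal on each array, on a log axis in arbitrary units, of the 5 Fabp family genes in the order in which they lie on rat chromosome 2, with the background of 14.2 dashed. Fabp5 and Fabp9 lie well above the line in both groups, and Fabp9 is lowest on cAMP replicate 2, at 429.

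Among other genes of the family, Fabp9 was the only one tested. Another 7 lay below the filter, the liver, intestinal and ileal carriers Fabp1, Fabp2 and Fabp6 among them with signals of at most 10.7.

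Genes that bring fatty acids into the cell and activate them changed in both directions. Of 13 tested, 3 rose, 2 fell and 8 did not pass, with a median log2 difference of 0.18; over all 10035 named genes tested, 8.27% were higher and 7.14% lower, and the median was -0.03. Lpl, the lipase that frees fatty acids from lipoproteins, fell from 160.7 and 184.5 to 37.5 and 34.9 (-1.85 ± 0.18, adjusted p by limma = 0.000962). Acsl4, which couples long polyunsaturated fatty acids to coenzyme A, rose from 127.3 and 118.9 to 627 and 449 (1.98 ± 0.19). Its relative Acsl6 fell from 125.3 and 122.5 to 69.1 and 53.1 (-0.87 ± 0.19). The fatty acid transport proteins Slc27a3 (1.69 ± 0.20) and Slc27a1 (0.53 ± 0.12) rose, Slc27a3 from 71.0 and 53.9 to 210.0 and 264. Acsbg1, the brightest gene of the list at 1906 to 2478, had a log2 difference of 0.02 ± 0.15. Cd36, a fatty acid receptor of the cell surface, lay below background on all arrays. Slc27a1 and Acsl6 lost their calls when either cAMP array was left out, leaving 2 higher and 1 lower in each case, and without control replicate 1 the list counted 5 higher and 2 lower.

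Genes of retinoid supply, synthesis and breakdown also went both ways. Of 9 tested, 2 rose, 3 fell and 4 did not pass, with a median of -0.47, which was -0.83 with a pseudocount of 1 and -0.20 with one of 64. Rdh10, which oxidises retinol to retinal, the first step towards retinoic acid, rose from 69.4 and 55.7 to 299 and 364 (2.14 ± 0.19, adjusted p by limma = 0.000568). The retinal dehydrogenases that make retinoic acid differed from each other. Aldh1a3 rose from 149.2 and 98.3 to 299.7 and 390.3 (1.38 ± 0.23), and Aldh1a1 fell from 4991 and 4636 to 2259 and 3116 (-0.85 ± 0.16). Aldh1a2 was level, at 113.1 and 80.6 in control cells and 121 and 87 with cAMP, and did not pass (0.09 ± 0.23). Cyp26b1, which degrades retinoic acid, fell from 66.9 and 67.4 to 20.4 and 21.0 (-1.18 ± 0.19), and Rbp4, the plasma carrier of retinol, from 72.6 and 124 to 26.6 and 38.1 (-1.21 ± 0.27). All 3 that fell lost their calls without cAMP replicate 1, and Aldh1a3, Cyp26b1 and Rbp4 did so without cAMP replicate 2, which left 1 higher and 1 lower. Rbp4 was also lost without control replicate 2. Rdh10 passed in every fit that left out 1 array.

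**Figure D5:**
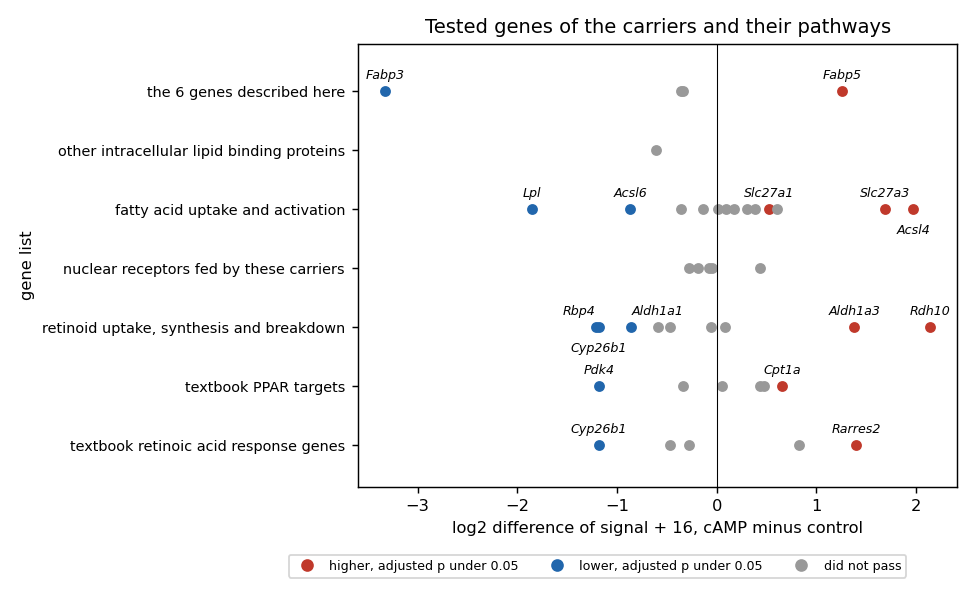
Log2 differences (cAMP minus control, signal + 16) of the tested genes, one row per list and one point per gene, red for higher, blue for lower and grey for genes that did not pass. Fabp3 at -3.33 lies further from 0 than any gene of the other lists, whose values run from -1.85 for Lpl to 2.14 for Rdh10.

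The receptors and the usual target genes of these ligands are set here against the 8.27% of named genes called higher and 7.14% called lower. Of 5 tested PPAR, RAR and RXR genes limma called 0, and 0 had an unadjusted p under 0.05; Rara, the brightest, had a log2 difference of 0.44 ± 0.20. Of 6 tested textbook PPAR targets 1 rose and 1 fell; the median was 0.25, and 0.13 without control replicate 2. Cpt1a, the gate of fatty acid entry into mitochondria, went from 441.8 and 452.6 to 833 and 613 (0.66 ± 0.17, adjusted p by limma = 0.0461), and Pdk4, a kinase that restrains pyruvate oxidation, from 34.2 and 46.7 to 6.6 and 11.0, below background, at least 2.81-fold lower (adjusted p by limma = 0.0160). Both calls were lost when either cAMP array or control replicate 2 was left out, and without control replicate 1 the list counted 3 higher and 1 lower. A second, dimmer probe set of Cpt1a was also called higher with all 4 arrays (0.84 ± 0.21, adjusted p by limma = 0.0407). The second one of Pdk4 lay below background on every array and was not tested. The lipid droplet gene Plin2, the brightest of the PPAR target list, did not pass (0.44 ± 0.14). Of 5 tested retinoic acid response genes Rarres2, which encodes chemerin, rose from 133.3 and 88.5 to 273 and 361 (1.40 ± 0.23, adjusted p by limma = 0.00767) and Cyp26b1 fell; the median was -0.28, and -0.42 with a pseudocount of 1 and -0.13 with one of 64. Both were lost without cAMP replicate 2 and Cyp26b1 also without cAMP replicate 1, and without control replicate 1 there were 2 higher and 1 lower.

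The named genes most like Fabp3 and Fabp5 were sought among 10031 others by the Euclidean distance between log2(signal + 16) values over the 4 arrays, each gene centred on its own mean. Nearest to Fabp3 were Slco1a4, an organic anion transporter (distance 0.25), Scn3b, a sodium channel subunit (0.30), and the transcription factor gene Mef2c (0.37). Slco1a4 went from 382.5 and 445.2 to 24.4 and 18.9, and Mef2c from 1043 and 995 to 108.4 and 95.2. Nearest to Fabp5 were the myelin protein gene Pmp22 (0.04), Kiaa1958 (0.06) and Bcl6, a transcriptional repressor (0.10). Pmp22 went from 464 and 497 to 1082 and 1216. With 4 arrays in 2 groups this distance mostly compares the size of the difference between groups.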

How the data were processed

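RNA of cultured rat Sertoli cells, 2 control and 2 cAMP samples, was hybridised to 1-colour Affymetrix arrays. The deposited intensities, 1 linear value per probe set, came from GCOS and MAS5 as the authors ran them, per the submitters' processing notes, which give no version or setting here. Trimmed of 2% at each end, the mean intensity was 125 on all arrays, so they had been scaled alike. From these log2(signal + 16) was computed with no further normalization. Of 31042 probe sets other than the 57 controls, 18625 at or above the 40th percentile of the mean entered a two-sided test by limma 3.58.1 under R 4.3.3 (lmFit and eBayes, intensity trend) and adjusted by Benjamini-Hochberg; the threshold was 0.05. The script was tested on simulated data. Where several probe sets named 1 gene, the brightest on average was used. Symbols were updated through rat RefSeq (GRCr8): 20764 of 20832 single-symbol probe sets matched. A bound ("at least", for Pdk4) sets the geometric mean of the brighter group against the dimmer group raised to background.

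The 6 genes, the lists and the cell type markers were chosen with earlier results of these data known. From each list the text names the genes past the threshold, at most 4 by smallest p or all in a direction with 5 or fewer, and the brightest tested gene; for each of the 6 genes past the threshold it names the 3 nearest genes. Other genes were named after their values were seen. The number of arrays limits the precision. Alternatives were other pseudocounts, no filter, quantile normalization, no trend, a replicate block and leaving out each array.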

Additional observations from a re-analysis of the deposited data

How the results depend on the processing

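Fabp3 stayed lower, Fabp5 stayed higher, and Crabp1 and Crabp2 stayed below 0 without passing under all 10 alternatives by limma. Fabp3 ranged from -3.55 to -3.10 on the log2 scale, Fabp5 from 1.16 to 1.36, Crabp1 from -0.47 to -0.21 and Crabp2 from -0.59 to -0.15; the adjusted p was at most 0.00145 for Fabp3 and 0.0221 for Fabp5. Fabp4 and Fabp7 were tested only without the filter. Over the whole array, 873 probe sets were higher and 725 lower without the filter, where more probe sets were tested. With 1 array left out, between 408 and 2419 were higher and between 305 and 2371 lower; a group left with 1 array is assumed to vary like the other. The replicate numbers are shared by the groups without a stated pairing. Deviations of same-numbered arrays from their group means correlated with r = 0.163 over probe sets. With the number as a replicate block 1540 were higher and 1495 lower, and the block changed no call of the 4 tested genes. Quantile normalization gave a median difference of -0.03. Among other named genes of the pathway lists, without the filter Slc27a1, Acsl6, Rbp4, Aldh1a1, Pdk4 and Cpt1a lost their calls, without the trend Slc27a1 and Cpt1a, and with a pseudocount of 1 Cpt1a. Of the cell type markers, Shbg and Synpo2 lost their calls without the filter (adjusted p by limma = 0.117 and 0.122). The other settings are not given for the markers. Signals near background limit what can be said of Fabp4, Fabp7 and Crabp2.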
